A study of Mus musculus with 15 samples.

Results

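The 5 unstimulated cultures of a bulk RNA-seq series of 15 mouse cerebellar cultures are described here, chosen by their titles alone. Each came from the cerebella of C57BL/6 wild-type pups of postnatal day 0 to 4, dissociated and plated at 90000 cells per well. They were kept on poly-L-lysine in Neurobasal Plus with B27 Plus and received no cytokine. The other 10 cultures of the series were given recombinant IL-12p70 at 30 or 100 ng/ml for 18 h from day 14 in vitro, and enter no value below. All 15 share the genotype, the plating and the medium, and no separate day of harvest is given for the unstimulated ones. The sources used here do not say whether the 5 cultures came from separate litters, pups or platings, so the spread between them may be technical. The cell type in the labels is neurons, but no step that removed other cells is described.

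The cerebellum holds mostly glutamatergic granule cells, beside Purkinje cells, inhibitory interneurons, Bergmann glia, astrocytes, oligodendrocytes, microglia and cells of the meninges and ventricle lining. A dissociated postnatal cerebellum carries dividing glial precursors along with neurons. Receptors for cytokines, growth factors and transmitters are spread over these cell types, and many of their genes are spliced in a neuronal or a glial way.

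Expression is given as TPM, a transcript level corrected for transcript length and scaled to the same total in each library, summed over the transcripts of a gene, and values are listed in the order of cultures 1 to 5. Means are given with the SD, n = 5 cultures throughout. A gene is said to be detected when it reached 1 TPM in every culture. The estimated read totals were 38435850 in culture 1 and 26473173 to 28643000 in the other 4. Of 35142 annotated genes, 14197 were detected, of which 13298 were protein-coding and 791 were long noncoding RNAs. A further 8069 genes were at 0 in every culture. Counts in any pair of libraries differed by more than read sampling alone gives, with a chi-square per degree of freedom of 5.20 to 17.9 over the 10 pairs, which shows only that none of the 5 libraries is a copy of another. Over 9525 protein-coding genes of at least 10 TPM, Pearson's r of log2(TPM + 1) between cultures was 0.991 to 0.995, as a description across genes, which are not independent replicates.

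The most abundant nuclear genes included a lipid carrier, lysosomal proteases, iron storage proteins, metallothioneins and the myelin gene Mbp. Apoe, the main lipid carrier of glia, was at 13587, 12540.0, 15459, 17190.3 and 12832 TPM and led all nuclear genes with a mean of 14322 ± 1966. Ctsd, the lysosomal protease cathepsin D, followed at 12590.4, 11752, 15284, 16765 and 14051 TPM, with culture 4 the highest and culture 2 the lowest for both genes. Ctsb, the lysosomal protease cathepsin B, was at 5227 ± 542 TPM, of which a transcript annotated as a retained intron held 65.1% ± 0.359 and the coding transcript 34.9% ± 0.36. The ferritin subunits Fth1 and Ftl1, which store iron, were at 8659 ± 431 and 8461 ± 599 TPM.

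Dbi, an acyl-CoA binding protein that is abundant in glia, was at 10118, 11195, 10512, 10062 and 9792 TPM. Spp1, which encodes the secreted phosphoprotein osteopontin, was at 5748, 5586, 7364, 7103 and 7324 TPM, and cultures 3, 4 and 5 lay above cultures 1 and 2. Mbp, the myelin basic protein of oligodendrocytes, was at 5845, 4979, 4179.6, 3849.5 and 5241 TPM, highest in culture 1 and lowest in culture 4. The metallothioneins Mt2 and Mt1, which bind metals, were at 5857 ± 509 and 4464 ± 390.4 TPM. The metallothioneins were highest in culture 2, where Apoe and Ctsd were lowest.

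Cytoskeletal genes were also among the 25, with the actin-binding Tmsb4x at 8374 ± 483, beta-actin Actb at 3591 ± 275, the glial intermediate filament Vim at 3361 ± 154 and alpha-tubulin Tuba1a at 3174 ± 204 TPM. The secreted matrix protein Sparc was at 3242 ± 167 TPM and the protease inhibitor Cst3 (cystatin C) at 3109.9 ± 154 TPM, and both are common products of glia. The remaining named genes are used by most cells. The translation factor Eef1a1 was at 4402 ± 161 and the ribosomal protein Rpl41 at 4271 ± 177 TPM. Tpt1, Gapdh (glycolysis), Ppia (a prolyl isomerase), Ckb (brain creatine kinase) and Gnas (a G protein subunit) lay between 2627 and 3494 TPM in the mean. Ppia had a coefficient of variation (CV, the SD in percent of the mean) of 3.02%.

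The predicted gene Gm49369 (chr7:141924833-141936404, GRCm39, minus strand) also ranked among the 25, at 3032, 1696, 2959, 2263 and 2736 TPM. It overlaps Ctsd (chr7:141929646-141941775, minus strand) on the same strand, so the division of reads between these 2 genes rests on the authors' estimate and both levels are uncertain. Mitochondrial messages took 7.36 to 8.52% of all TPM, led by mt-Co1 at 14992 ± 465 TPM, and the 84 cytosolic ribosomal protein genes took 8.08% ± 0.287. The 25 most abundant genes, mitochondrial ones included, held 18.2% of all TPM, and 422 genes held 50%. Both figures depend on length correction. In CPM, the same scaling of estimated counts without length, the top 25 held 11.7% and 1063 genes were needed for 50%.

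**Figure D1:**
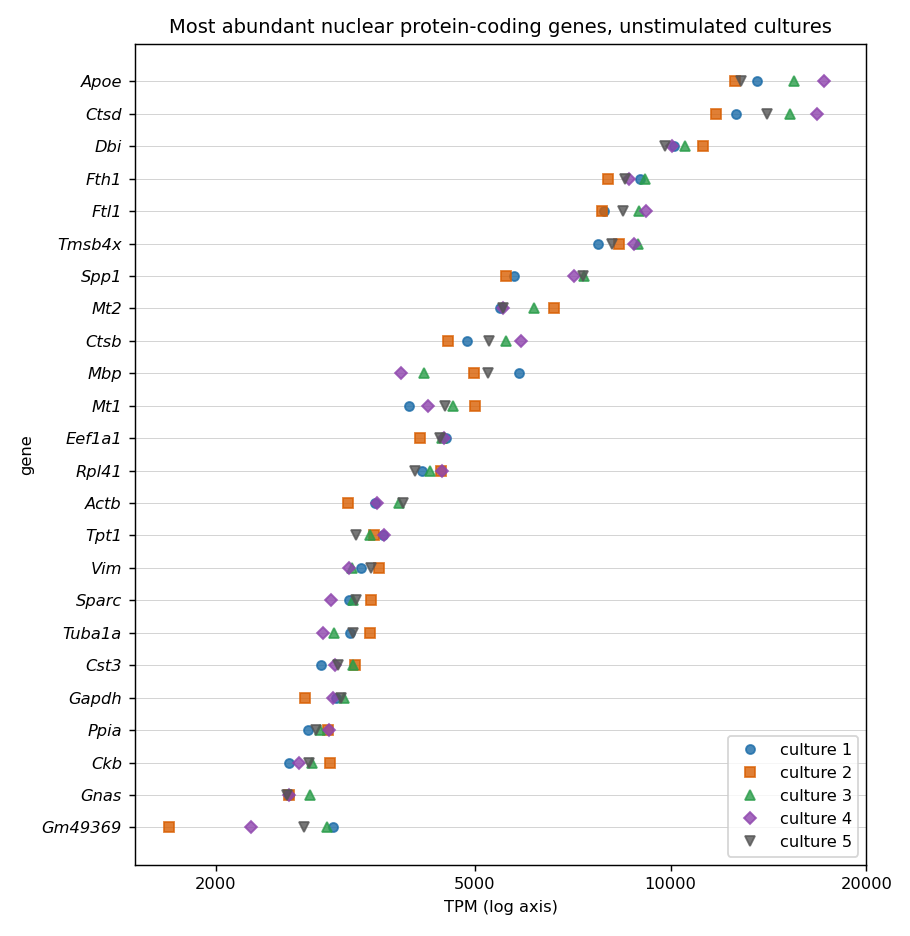
TPM (log axis) of 24 of the 25 nuclear protein-coding genes with the highest mean, with a symbol for each of the 5 unstimulated cultures. Apoe and Ctsd led in every culture and were highest in culture 4, whereas Mbp was highest in culture 1.

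Cell types were described with 18 marker lists, chosen with earlier results of these data known, so they are no independent check of the labelled cell type. The medians of the astrocyte, microglia and mature oligodendrocyte lists lay far above that of the pan-neuronal list. Each list holds different genes, so the medians are not on a common scale of cell content. In bulk RNA, more cells of a type and more RNA per cell cannot be told apart, so the values below are levels of messages and not cell numbers. The median of the 18 pan-neuronal markers was 11.9, 11.1, 15.5, 10.8 and 15.1 TPM, a mean of 12.9 ± 2.25. The astrocyte list had a median of 146, 153, 143, 131 and 145 TPM, which was 11.4 ± 1.93 times the pan-neuronal one. The microglia list had a median of 112, 101, 153, 146 and 134 TPM, 10.2 ± 1.96 times the pan-neuronal one. That ratio was 15.4 in CPM. The mature oligodendrocyte list had a median of 140.5, 117, 94.9, 94.7 and 117 TPM, 9.01 ± 2.23 times the pan-neuronal one. Each of these 3 glial medians exceeded the neuronal median in 5 of 5 cultures, with no overlap. In CPM the pan-neuronal, astrocyte, microglia and mature oligodendrocyte medians were 19.6, 262, 297 and 258. Among themselves the astrocyte, microglia and mature oligodendrocyte medians overlapped.

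**Figure D2:**
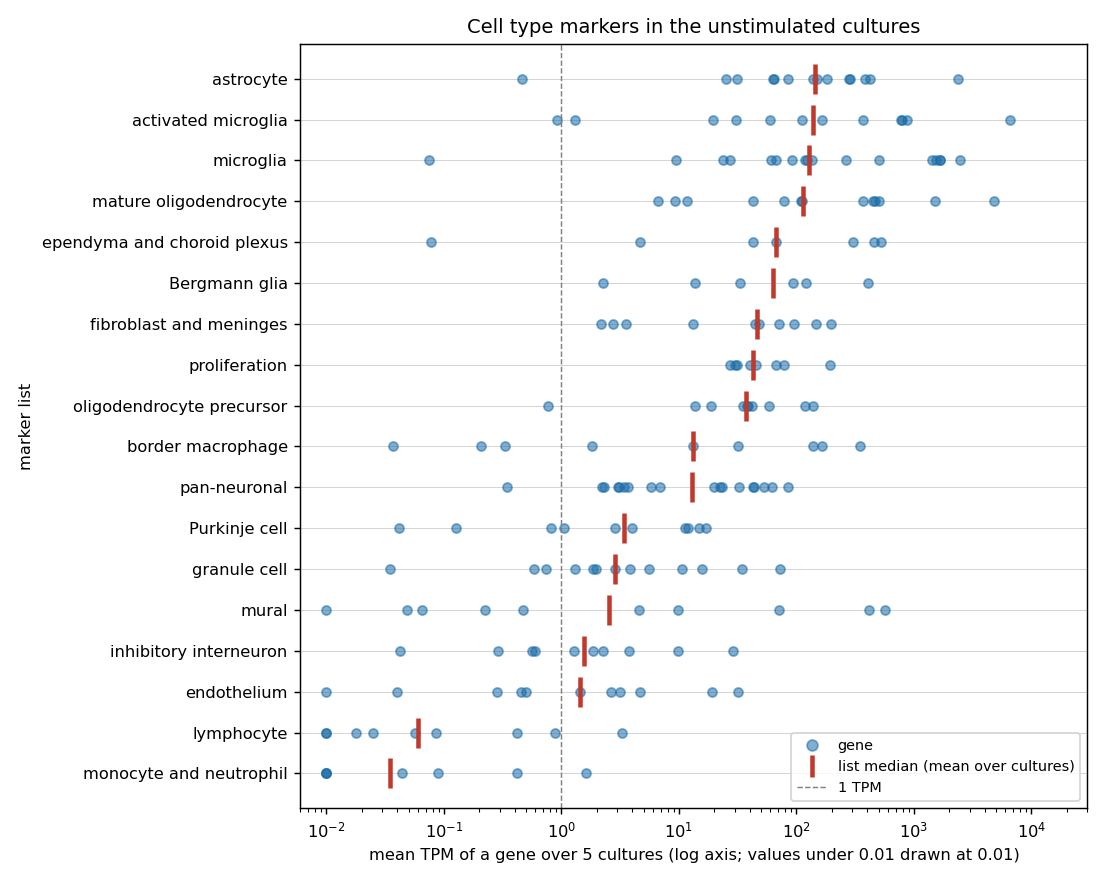
Mean TPM over the 5 unstimulated cultures (log axis) of each gene in 18 marker lists, with the list median as a bar and 1 TPM as a dashed line. Astrocyte, microglia and mature oligodendrocyte medians lay over 100 TPM, the pan-neuronal median at 12.9 TPM, and the monocyte and lymphocyte medians under 0.1 TPM.

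Neuronal messages were present, with 17 of 18 pan-neuronal markers detected and a summed level of 343 to 446 TPM. Map2, a dendritic microtubule protein, was at 97.3, 79.6, 79.2, 67.9 and 100.4 TPM, Gap43, a growth cone protein, at 69.6, 69.6, 55.8, 53.8 and 61.6 TPM and Tubb3, neuronal beta-tubulin, at 59.8, 61.7, 46.6, 43.3 and 55.7 TPM. All 3 were lowest in culture 4. Rbfox3, which encodes the NeuN antigen, was at 3.24, 2.51, 4.73, 2.66 and 3.94 TPM. The neurofilament gene Nefh stayed under 1 TPM in every culture, at 0.192 to 0.454 TPM.

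Cerebellar neuron types were low. Of the 13 granule cell markers 9 were detected, with a list median of 2.86 ± 0.669 TPM, which was 10.9 in CPM. The transcription factors Zic1 (72.4 ± 4.36 TPM), Pax6 (34.2 ± 3.49 TPM) and Etv1 (15.7 ± 1.42 TPM) led that list, and Zic1 and Pax6 are also used outside granule cells. Genes that mark mature granule cells were lower, and highest in culture 3: Slc17a7, the vesicular glutamate transporter, was at 4.55, 4.66, 8.12, 4.12 and 6.19 TPM, and the GABA-A receptor subunit Gabra6 at 2.12, 1.14, 3.42, 1.5 and 1.69 TPM. The progenitor factor Atoh1 (7 reads over all cultures) and the NMDA receptor subunit Grin2c (0.58 ± 0.212 TPM) stayed under 1 TPM.

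Of the 10 Purkinje cell markers 6 were detected. The calcium buffer Calb1 was at 16.7, 18.9, 16.2, 16.3 and 17 TPM and the calcium release channel Itpr1 at 14.9 ± 2.34 TPM. The more restricted Purkinje genes Pcp2 and Ppp1r17 were near 0, with 6 and 20 reads over the 5 libraries. Of the 10 inhibitory interneuron markers 5 were detected, with a list median of 1.55 TPM, which was 3.95 in CPM. They were led by the calcium buffer Pvalb at 28.4, 27.6, 31.4, 27.6 and 29.5 TPM. The GABA-synthesizing enzyme Gad1 was at 11, 7.38, 12.1, 7.29 and 11.1 TPM and the vesicular GABA transporter Slc32a1 at 3.04, 2.93, 5.44, 2.81 and 4.73 TPM, both higher in cultures 1, 3 and 5 than in 2 and 4. The glycine transporter Slc6a5, the transcription factors Lhx1 and Lhx5 and the peptide Sst stayed under 1 TPM in every culture.

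Astrocyte messages were broad, and the detected genes had a median CV of 6.41% between cultures, up to 19.2% for Slc1a2. Of 14 markers 13 were detected, and the intermediate filament gene Gfap was at 2308, 2421, 2548, 2142 and 2412 TPM. The water channel Aqp4 was at 423 ± 37 TPM and the glycolytic enzyme Aldoc at 381 ± 10.3 TPM, with a CV of 2.7% for Aldoc. The glutamate transporter Slc1a3 was at 283 ± 17.2 TPM, against 31.5 ± 6.06 TPM for the other astrocytic glutamate transporter, Slc1a2. The connexin Gjb6 was the exception in the list, at 0.337 to 0.559 TPM. All 6 Bergmann glia markers were detected, led by A2m (409 ± 40.1 TPM), a protease inhibitor, Septin4 (121 ± 14.3 TPM) and the homeodomain protein Hopx (93.3 ± 4.64 TPM), while Gdf10, the most restricted of them, was at 2.27 ± 0.569 TPM.

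Markers from both oligodendrocyte lists were detected, and these levels do not tell cell stages apart. Of the 10 precursor markers 9 were detected, led by the transcription factor Olig1 (141, 159, 121, 131 and 142 TPM), the phosphatase receptor Ptprz1 (119 ± 13 TPM) and the transcription factor Sox10 (58.8 ± 8.52 TPM). Pdgfra, also of that list, was at 35.0 ± 4.40 TPM. All 13 mature markers were detected and all 13 were highest in culture 1, though the share of all genes highest in that culture was not counted. Cnp, a myelin enzyme, was at 577, 545, 441, 435 and 525 TPM. Culture 4 was the lowest for Cnp, as it was for Mbp. Culture 1 also had the most reads of the 5, and the part of depth in this list's level was not tested.

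Microglial messages ranked with those of astrocytes. Of the 17 microglia markers matched, 16 were detected. C1qa and C1qc, chains of complement C1q, were at 2227, 2051, 2698, 2896 and 2388 and 1509.8, 1389, 1816, 2004 and 1650.4 TPM. Culture 2 was the lowest for 14 of the 16 detected genes, though the share of all genes lowest in that culture was not counted. The homeostatic receptor P2ry12 was at 27.3 ± 3.83 TPM and Tmem119 at 66.6 ± 11.8 TPM, whereas the lectin Siglech was at 0 to 0.226 TPM. Activation-linked genes were abundant, with 10 of 12 detected. After Spp1, the lysosomal protein Cd68 (867 ± 107 TPM) and the glycoprotein Gpnmb (788 ± 111 TPM) led the list. The 2 not detected were the arginase Arg1, at 2.00, 0.597, 0.467, 0.706 and 0.843 TPM, and the integrin Itgax, at 1.58, 1.46, 0.871, 0.954 and 1.6 TPM.

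Markers of border macrophages were split, with a list median of 13.1 TPM, which was 6.87 in CPM. The scavenger receptor Stab1 was at 315, 281, 345, 438 and 353 TPM, the chemokine Pf4 at 173, 109, 167, 198 and 171 TPM and Ms4a7 at 138, 116, 151, 169 and 122 TPM, each highest in culture 4 and lowest in culture 2. Mrc1 was at 32.0 TPM in the mean, and Folr2 and Cbr2 were also detected. In contrast, Lyve1, F13a1 and Cd163 stayed under 1 TPM in every culture, with 33, 95 and 10 reads in all. Markers of blood leukocytes were low. Of 7 monocyte and neutrophil markers 0 were detected, and the highest, the granulocyte gene S100a8, was at 1.51, 0.974, 2.14, 2.23 and 1.27 TPM. Ly6g, S100a9 and Retnlg had 0 reads among the 149762000 reads of the 5 libraries, which allows up to 0.02 CPM, for counting error only. The chemokine receptor Ccr2 had 32 reads, the monocyte gene Ly6c2 6 and the myeloid gene Plac8 24. Of 9 lymphocyte markers, Cd4, which macrophages also express, was detected at 2.02 to 5.79 TPM. The T cell genes Cd3e, Cd3d and Cd8a, the B cell genes Cd79a and Ms4a1 and the natural killer receptor gene Klrb1c were under 1 TPM in the mean, with Ncr1 at 0 reads.

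Markers of the meninges were detected in full, whereas those of vessels were split. All 10 fibroblast and meningeal markers were detected, led by the collagens Col3a1 (180.5, 155, 204, 220.1 and 216 TPM), Col1a1 (148 ± 12.7 TPM) and Col1a2 (96.1 ± 11.3 TPM), and 9 of the 10 were lowest in culture 2. The share of all genes lowest in culture 2 was not counted. The mural list had a median of 2.52 TPM, which was 10.5 in CPM. Of its genes, the contractile genes Tagln and Acta2, which other cells also use, reached 567 ± 28.1 and 416 ± 19.7 TPM, and the adhesion protein Vtn 71.6 ± 12.5 TPM. Pdgfrb, also of the mural list, was at 9.84 ± 0.638 TPM. The pericyte and smooth muscle genes Rgs5, Kcnj8, Abcc9, Myh11 and Higd1b stayed under 1 TPM, with Higd1b at 0 reads. Endothelial markers showed the same split, with 6 of 11 detected. Slco1a4 (31.9 ± 2.69 TPM), a transporter that other brain cells share, Flt1 (18.9 ± 2.77 TPM) and Kdr (4.69 ± 0.626 TPM), receptors for VEGF, led the list. Cdh5, Ly6c1 and Emcn were also detected. The junction gene Cldn5 had 0 reads in all 5 cultures, and Pecam1, Tek, Esam and Tie1 stayed under 1 TPM.

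Ependymal genes were high, with 6 of 7 markers of ependyma and choroid plexus detected and a summed level of 1198 to 1574 TPM. The median of that list was 66.9 TPM and 25.7 in CPM. Ccdc153, a gene of motile cilia, was at 558, 556, 505, 480.0 and 502 TPM, and Foxj1, the transcription factor that drives motile cilia, was at 424, 525, 436, 444 and 480.0 TPM. Ttr, the thyroxine carrier of the choroid plexus, was at 478, 312, 319.6, 167 and 231 TPM and was the most variable of the list. The choroid plexus gene Kl stayed under 1 TPM. A list of 14 genes of multiciliated cells, chosen after values of these data were seen, was detected in full. It included the centriole factor Deup1 (23.1 ± 3.39 TPM), the axonemal proteins Rsph1 (113 ± 8.92 TPM) and Cfap126 (141 ± 7.9 TPM), and Mcidas (5.3 ± 0.738 TPM), a regulator of the multiciliated fate.

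Dividing cells were present. All 8 proliferation markers were detected, with Pcna, the replication clamp, at 207, 187, 192, 189.6 and 193 TPM, the mitotic kinase Cdk1 at 78.2 ± 3.7 TPM and the topoisomerase Top2a at 66.6 ± 4.08 TPM. Regional transcription factors were mainly those of the hindbrain. Of 10 genes of cerebellum and hindbrain 8 were detected, with Meis2 at 40.3 ± 6.21 TPM, Zic4 at 39.7 ± 1.63 TPM and the midbrain-hindbrain boundary gene En2 at 12.3, 15, 12.4, 13 and 13.2 TPM. Of 10 forebrain genes 2 were detected, Otx2 at 5.58 ± 0.869 TPM, which also marks the choroid plexus and granule cells, and Tbr1 at 1.78 ± 0.517 TPM, a factor of cortical and deep cerebellar neurons. Of 10 Hox genes of more posterior levels 4 were detected, the highest being Hoxa2 at 6.27, 5.69, 5.81, 5.68 and 6.33 TPM, followed by Hoxa3 (3.64 ± 0.17 TPM), Hoxb2 (3.45 ± 0.159 TPM) and Hoxb3 (2.23 ± 0.296 TPM), while Hoxa9 and Hoxc10 had 0 reads.

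Xist, the noncoding RNA of the inactive X chromosome of female cells, was at 60.2, 47.7, 43.8, 49.7 and 50.1 TPM. The Y-linked genes Ddx3y (21.9, 18, 16.9, 18.3 and 17.9 TPM), Eif2s3y (20.7 ± 1.43 TPM), Kdm5d (7.15 ± 0.599 TPM) and Uty (6.47 ± 0.478 TPM) were detected in the same 5 libraries. Each library therefore held messages of both sexes, at levels that varied by a CV of 6.9 to 12.0%. Tsix, the antisense partner of Xist, stayed under 1 TPM.

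Signalling molecules were described next, with ligands before receptors. Of 170 ligand genes 108 were detected, where 61.6% of all protein-coding genes were. Among interleukins and related cytokines 19 of 41 were detected. Csf1, a survival factor of microglia, was the highest at 99.2, 104, 93, 97.2 and 105 TPM, and all 5 values lay within a CV of 5.01%. Cntf, a glial cytokine for neurons, was at 96, 109, 88.9, 89.8 and 90.1 TPM, Tgfb1 at 75.8 ± 8.47 TPM, Tnfsf12 (TWEAK) at 32.4 ± 2.35 TPM and Il18 at 18.8 ± 1.63 TPM. Il34, the other ligand of the CSF1 receptor, was at 5.49 ± 0.608 TPM, far under Csf1. Tnf was at 10.6 ± 0.825 TPM, whereas Il6 had 14 reads and Il10 and Ifng had 1 read each over the 5 libraries.

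Of 31 chemokines 15 were detected. After Pf4, described above, the highest were Ccl3 (56.7, 49, 65.6, 65.9 and 65 TPM), Cxcl14 (58.6 ± 4.96 TPM), Ccl12 (31.7 ± 5.33 TPM) and Ccl4 (30.9 ± 2.99 TPM). Ccl3 and Ccl4 are products of activated microglia, and both were lower in cultures 1 and 2 than in 3, 4 and 5. The interferon-induced Cxcl10 was at 3.82, 4.31, 10.3, 6.66 and 3.53 TPM, with culture 3 the highest and a CV of 49.4%.

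Growth and neurotrophic factors were detected for 34 of 50 genes. Grn, the lysosomal and secreted progranulin, led at 1221, 1044, 1381, 1483 and 1297 TPM, followed by Gas6, a ligand of TAM receptors, at 496, 479.8, 580.3, 605 and 576 TPM. The heparin-binding factors Ptn (353 ± 40.8 TPM) and Mdk (267 ± 19.7 TPM) and the stress-induced Manf (242 ± 4.67 TPM) came next. Factors for neurons were low in comparison: Bdnf was at 2.64, 1.66, 1.85, 2.36 and 2.05 TPM, Ntf3 at 3.18 ± 0.468 TPM and Gdnf at 0.664 ± 0.129 TPM. Of 48 morphogens and contact ligands 40 were detected. After Apoe and Spp1, complement C3 was at 440.3, 416, 463, 339.8 and 459.9 TPM, the axon guidance cue Ntn1 at 139 ± 10 TPM and the procollagen protease Bmp1 at 99.9 ± 7.19 TPM. Shh, a mitogen of granule cell precursors made by Purkinje cells, was at 3.33 ± 0.576 TPM and Wnt1 at 0 reads.

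Of 227 receptor genes 172 were detected. Of 46 cytokine receptors 39 were detected. Csf1r, the receptor that microglia need to survive, was at 262, 191, 282, 289.5 and 295 TPM, lowest in culture 2. The TWEAK receptor Tnfrsf12a was at 143 ± 11.4 TPM, the shared signal chain Il6st (gp130) at 134 ± 15.7 TPM, the TNF receptor Tnfrsf1a at 129 ± 13.1 TPM and Il11ra1 at 82.8 ± 4.34 TPM. Receptors for interferons were also present, with Ifngr1 at 62.1 ± 4.02 TPM and Ifnar1 at 59.3 ± 2.67 TPM. Of 23 chemokine receptors 6 were detected. Cx3cr1, a microglial receptor, was at 132, 113, 153, 146 and 139 TPM and Cxcr4 at 68.5, 71.8, 70.4, 64.7 and 68.2 TPM, followed by the atypical receptors Ackr3 (18.3 ± 0.665 TPM) and Ackr1 (11.3 ± 2.49 TPM) and by Ccr1 (2.46, 1.88, 2.61, 4.94 and 2.48 TPM), which was highest in culture 4.

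IL-12 acts through the chains IL-12Rβ1 and IL-12Rβ2, and both were close to the detection level. Il12rb2 (chr6:67268302-67353172, GRCm39, minus strand) was at 2.29, 2.09, 1.86, 2.04 and 2.44 TPM on 91 to 145 reads per library. Il12rb1 (chr8:71261093-71276183, plus strand) was at 0.973, 0.859, 0.625, 0.75 and 0.705 TPM on 23 to 51 reads per library. Il12rb2 therefore passed 1 TPM in 5 of 5 cultures and Il12rb1 in 0 of 5, and the 2 genes did not overlap in level. The ligand was lower still: Il12a, the p35 subunit, had 7 reads over the 5 libraries and Il12b, the p40 subunit, had 0, which allows up to 0.02 CPM. Il23a, which pairs with p40 in IL-23, was at 1.89 ± 0.526 TPM and its receptor chain Il23r at 0.294 ± 0.135 TPM. For comparison on the same length-corrected scale, Csf1r was at 264 and Il6st at 134 TPM. In bulk RNA the cell type that carries the IL-12 receptor messages cannot be read from these levels.

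Growth factor receptors were detected for 27 of 36 genes. Ntrk2 (TrkB), the BDNF receptor, was by far the highest at 391, 396, 360.1, 356 and 404 TPM. Fgfr1 was at 139 ± 7.03 TPM, Axl at 111 ± 11.3 TPM and the sorting receptor Sort1 at 59.2 ± 3.68 TPM, beside Ptprz1 given above. Of 41 morphogen and contact receptors 38 were detected, led by the microglial lipid receptor Trem2 (444, 418, 554, 600.1 and 512 TPM) and the CD47 receptor Sirpa (271 ± 28.4 TPM). The complement receptors C3ar1 (96.7 ± 12 TPM) and C5ar1 (69.8 ± 6.28 TPM) and the ephrin receptor Ephb2 (61.8 ± 3.75 TPM) followed.

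Transmitter receptors were lower. Of 24 glutamate receptor genes 18 were detected, led by the AMPA receptor subunit Gria1 at 137, 133, 113, 111 and 126 TPM. The kainate subunit Grik5 (26.3 ± 1.16 TPM) and the AMPA subunits Gria3 (20.7 ± 1.33 TPM) and Gria4 (13.7 ± 1.44 TPM) came next. Of 19 GABA and glycine receptor genes 14 were detected, among them Gabbr1 (39.3 ± 2.07 TPM), Gabrb1 (16.1 ± 1.92 TPM), Glrb (13.8 ± 1.92 TPM) and Gabrb2 (6.39 ± 0.872 TPM). The glycine receptor alpha chains Glra1, Glra2 and Glra3 stayed under 1 TPM.

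Of 19 purinergic receptors 13 were detected. P2rx4 was at 89.9, 86.1, 92, 108 and 95 TPM, P2ry6 at 41.2 ± 4.04 TPM, P2rx7 at 30.2 ± 3.35 TPM and the adenosine receptor Adora1 at 23.9 ± 2.49 TPM, with P2ry12 given above. The first 3 are known from microglia. Of 19 pattern recognition receptors 17 were detected, led by Clec7a (Dectin-1, 52.6, 50.5, 71, 59.8 and 65.4 TPM), Tlr2 (43.8 ± 5.03 TPM), the scavenger receptors Msr1 (42 ± 1.62 TPM) and Cd36 (38.2 ± 1.48 TPM), and Tlr13 (37.7 ± 4.22 TPM).

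Ligand and receptor levels were then set side by side for 56 known pairs. Both members were detected for 37 pairs, the ligand alone for 8, the receptor alone for 9 and neither for 2. Requiring 5 TPM in place of 1 left 24 pairs with both. The 5 pairs whose lower member was highest were Apoe with Trem2, Csf1 with Csf1r, Gas6 with Axl (548 and 111 TPM), C3 with C3ar1 (424 and 96.7 TPM) and Ptn with Ptprz1 (353 and 119 TPM). Cx3cl1, a neuronal chemokine, was at 23.8 ± 1.79 TPM beside Cx3cr1 at 137 TPM.

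The largest imbalance with both members detected on the receptor side was Bdnf with Ntrk2, at 2.11 and 382 TPM. Among pairs with the receptor alone were Ifng with Ifngr1, Il6 with Il6ra and Il12a with Il12rb2. Among pairs with the ligand alone were Ccl2 (24.3 ± 3.48 TPM) with Ccr2, Cxcl16 (29.2 ± 1.56 TPM) with Cxcr6 and Il18 with Il18r1, whose receptor had 26 reads in all. Message levels say nothing of protein, and partners may lie in different cells.

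**Figure D3:**
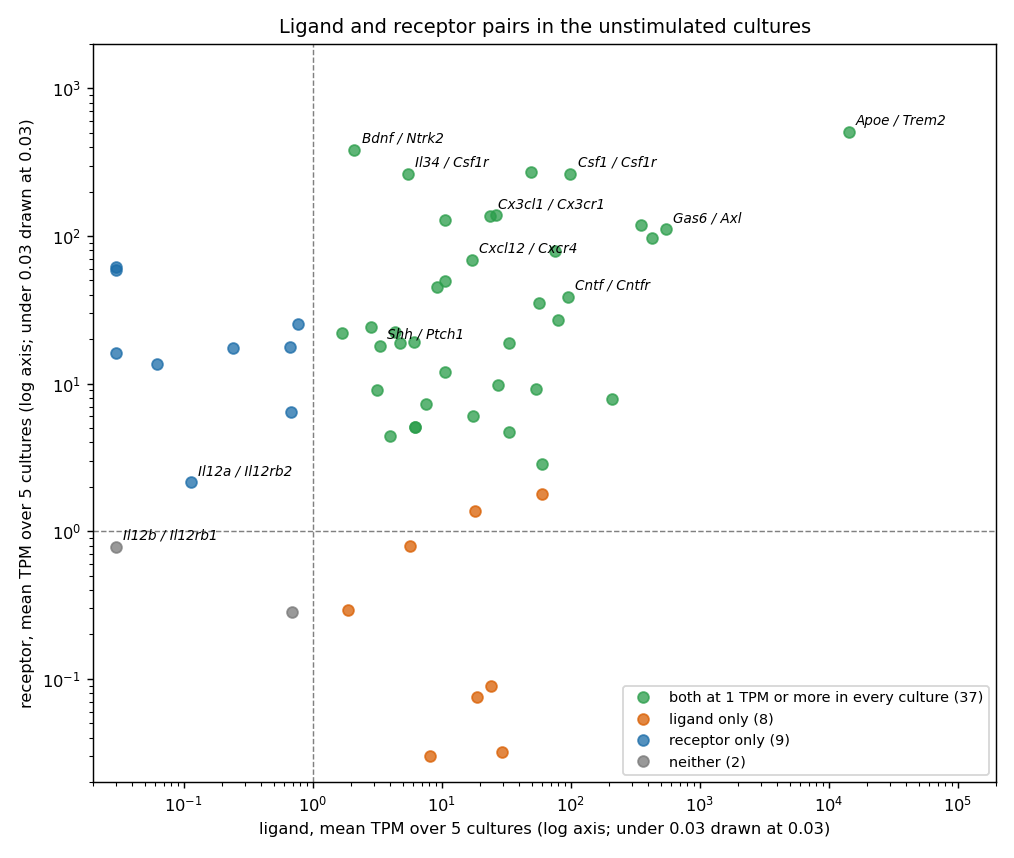
Mean TPM over the 5 unstimulated cultures of ligand (horizontal, log axis) and receptor (vertical, log axis) for 56 pairs, with dashed lines at 1 TPM. In 37 pairs both members reached 1 TPM in every culture, Apoe with Trem2 lay highest on both axes, and the IL-12 pairs lay at the low end.

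Isoforms were read from the same files, which give a level for each transcript. Single-end reads of 100 bases often fall in parts that transcripts share, and the estimate divides them by a model, so shares below carry that uncertainty beside the SD. Among 10420 genes with at least 2 annotated transcripts and 5 TPM in every culture, the leading transcript was the same in all 5 cultures for 8675 (83.3%). A single transcript held over 50% of the gene in every culture for 6594 genes (63.3%), and over 80% for 2680 genes. At 20 TPM in place of 5, 3997 genes met the 50% rule. The share of the leading transcript had a median over genes of 67.1%.

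Pkm, pyruvate kinase, has a pair of alternative exons of equal length. The upstream one makes the M1 form, known from neurons and muscle, and the downstream one the M2 form, known from glia and dividing cells. They are shown because the data separate them. The exons lie in coding sequence on the plus strand of GRCm39 at chr9:59582312-59582478 and chr9:59582851-59583017, and capitals mark the 64 of 167 bases at which they differ.
Pkm M1 exon: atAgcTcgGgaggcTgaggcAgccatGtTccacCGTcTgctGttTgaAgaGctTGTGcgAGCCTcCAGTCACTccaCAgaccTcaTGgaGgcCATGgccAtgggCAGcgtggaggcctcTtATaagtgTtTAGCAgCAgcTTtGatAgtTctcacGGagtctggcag
Pkm M2 exon: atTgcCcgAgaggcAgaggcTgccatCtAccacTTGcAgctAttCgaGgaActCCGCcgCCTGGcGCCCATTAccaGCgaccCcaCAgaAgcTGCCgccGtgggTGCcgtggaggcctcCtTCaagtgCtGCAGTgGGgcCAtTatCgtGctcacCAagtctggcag
The M1 exon was carried by 13.9, 12.5, 17.1, 11.5 and 15.1% of the Pkm TPM that crosses the site, and the M2 exon by 86.1, 87.7, 83.1, 88.6 and 84.9%. The M2 form thus held over 80% in every culture, and culture 3 had the most M1.

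App, the amyloid precursor protein, includes or skips an exon that encodes a Kunitz protease inhibitor domain. Neurons mainly skip it and other cells include it. The exon is printed because its share sets the App form that leads here. It lies in coding sequence at chr16:84840464-84840631 (GRCm39, minus strand) and is 168 bases long.
App Kunitz exon: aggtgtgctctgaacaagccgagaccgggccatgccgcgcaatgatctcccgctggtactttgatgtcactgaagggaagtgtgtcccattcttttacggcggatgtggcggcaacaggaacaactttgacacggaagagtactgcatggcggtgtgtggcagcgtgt
It was included in 78.1, 77.5, 80.5, 80.8 and 81% of App TPM. The 751-residue form led with 50.5% ± 1.94 of coding App TPM, followed by the 752-residue form with 28.3% ± 1.91, and the 695-residue form typical of neurons held 20.5% ± 1.62. The exon after the Kunitz exon was included in 29.2% ± 1.84.

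In Mbp, the form of 128 residues led with 55.2% ± 2.63 of coding Mbp TPM, ahead of the form of 169 residues with 16.8% ± 1.22.

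Ntrk2 was almost wholly in truncated forms. The form of 476 residues, TrkB.T1, which lacks the kinase and is the main form of astrocytes, held 82.6% ± 1.41 of coding Ntrk2 TPM, and a form of 492 residues held 15.4% ± 1.46. The full receptor of 821 residues held 1.89, 1.74, 1.77, 1.64 and 2.06%. The high Ntrk2 level above is therefore mostly a level of receptors without the kinase part.

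Neuronal cytoskeletal genes were in their short forms. Mapt (tau) was led by the form of 372 residues, with 75.9% ± 2.08 of coding Mapt TPM. Map2 was led by the form of 498 residues with 61.1% ± 3.46, while the long exon of the high-molecular-weight forms was included in 9.35% ± 0.905. Snap25, a synaptic fusion protein, had its form b exon, typical of mature neurons, in 77.6, 77, 84.9, 73.1 and 72.8% and its form a exon in the rest. Culture 3, which had the most Snap25, also had the largest form b share. The form a share was 22.9% of TPM and 11.1% of estimated reads.

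Gria1 has a pair of mutually exclusive exons, flop upstream and flip downstream, that tune the AMPA receptor. They lie at chr11:57200595-57200709 and chr11:57201434-57201548 on the plus strand of GRCm39. They are shown because the downstream exon was almost the sole one used, and capitals mark the 36 of 115 bases at which they differ.
Gria1 upstream exon: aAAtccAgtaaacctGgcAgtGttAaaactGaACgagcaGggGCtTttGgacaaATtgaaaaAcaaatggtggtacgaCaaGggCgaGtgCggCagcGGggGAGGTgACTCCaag
Gria1 downstream exon: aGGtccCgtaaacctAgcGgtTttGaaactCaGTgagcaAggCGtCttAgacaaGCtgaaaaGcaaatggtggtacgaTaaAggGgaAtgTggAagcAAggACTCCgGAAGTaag
The downstream exon held 92, 96.4, 95.4, 95.7 and 92.3% and the upstream exon 5.65% ± 2.06. In Gria2, another AMPA receptor subunit, the leading coding transcript Gria2-202 held 41.3% ± 7.76.

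The clathrin light chain gene Cltb has an insert of 54 bases known from brain, at chr13:54744839-54744892 (GRCm39, minus strand), and its letters are given because the share that carries it depends on how it is counted.
Cltb insert: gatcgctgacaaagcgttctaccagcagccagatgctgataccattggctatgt
Its share was 63, 64, 65.1, 61.5 and 59.7% of TPM, a mean of 62.7%, but 42.4% of estimated reads. The related Clta was led by Clta-206 (218 residues) with 76% ± 2.11.

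Adhesion and matrix genes came next. Ncam1, a neural adhesion molecule, was led by its lipid-anchored form of 725 residues, and forms under 800 residues held 56.9% ± 1.08 of TPM but 38.5% of estimated reads. The longest form of Ncam1, typical of mature neurons, held 12.6% ± 0.972 of TPM and 22.9% of estimated reads. Fn1 (fibronectin) carried its extra domain B in 16.9% ± 1.45 and its extra domain A in 25.9% ± 1.21. Agrn (agrin) carried the first z insert, which neurons add, in 24.5% ± 2.4 of all Agrn TPM and in 11.8% over coding transcripts alone. Nfasc was led by Nfasc-202 (1240 residues) with 57.4% ± 1.75 and Ank3 by Ank3-233 with 16.1% ± 1.08 in 4 of 5 cultures, with Ank3-231 ahead in culture 4, and both genes organize axon domains. Tropomyosins were led by Tpm1-213 (34.8% ± 1.34) and Tpm3-201 (66.9% ± 2.21).

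Among immune and glial genes, Gfap was led by Gfap-201 with 94.6% ± 0.232, and its alternative end was used by 4.73% ± 0.231. Csf1 carried the long exon that yields secreted CSF1 in 78.6, 80.4, 78.7, 75.7 and 79.8%. Csf1r was led by Csf1r-201 (977 residues) with 75.8% ± 4.73, and a transcript with 103 coding codons took 23.3% ± 4.77. Trem2 was led by Trem2-201 with 77.9% ± 0.451, and Trem2-202, which encodes 249 residues, took 19.6% ± 0.65. Ptprc (CD45) was led by Ptprc-203 with 59.2, 82.2, 77.8, 77.7 and 74.4%, lowest in culture 1. Apoe was led by Apoe-201 with 62.6% ± 3.51, beside a partial transcript, Apoe-203, with 32% ± 3.72. The retained-intron transcript of Ctsb is given above.

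Of the remaining genes in the list, Cdc42, a small GTPase, was led by Cdc42-202 with 98% ± 0.232, Bin1, a membrane-bending protein, by Bin1-205 with 48% ± 1.71, Dnm1, a dynamin, by Dnm1-214 with 28.5, 33.5, 38, 24.9 and 19.9%, and Vegfa by Vegfa-202 with 33.6% ± 3.7. Il12rb1 and Il12rb2 were under 5 TPM, so no isoform shares are given for them.

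The leading transcript changed between cultures in 1745 (16.7%) of the 10420 genes above, and in 347 of the genes over 50 TPM. Among the 10 with the widest swing, Trp53 was split between Trp53-201 with 27.9, 57.8, 80.9, 70.8 and 40.3% and Trp53-203 with 56.2, 31.2, 3.96, 14.2 and 51.4%. The cilia gene Cfap144 was led by Cfap144-202 in 4 cultures (99.1, 82.3, 99.7, 42.6 and 90.5%), and the helicase gene Ddx41 by Ddx41-204 in 4 (39, 50.4, 86, 89.5 and 63.4%). The proteasome gene Psmc2 was led by Psmc2-201 with 74.9, 89.2, 88.5, 95.7 and 48.9%. Morn2, Ift43, Septin2, Sgpl1, Pigyl and 9530068E07Rik completed the 10. Such swings occurred between untreated cultures of 1 group, with no contrast involved.

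The spread between cultures was small for most genes. The median CV of TPM over the 9525 protein-coding genes was 7.14%, with an interquartile range of 4.86 to 10.3%. A CV over 25% was seen in 66 genes. Counting error alone would give a median CV of 2.63%. edgeR gave a common biological coefficient of variation of 7.38% over 14964 genes. The most even genes of at least 50 TPM were Ppib, a prolyl isomerase of the endoplasmic reticulum (625, 630.0, 625, 631 and 622 TPM, CV 0.579%), Flot2 (0.627%) and Sdf2 (0.661%).

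The 20 genes with the largest CV are given by known role, with no theme tested. Interferon-induced genes among them were Isg15 (12.4, 14.9, 24.8, 15.6 and 9.66 TPM) and Ifi27l2a (42.6, 29.5, 71, 55.3 and 35.1 TPM), both highest in culture 3. Macrophage and matrix genes were the mannose receptor Mrc1 (34.2, 18.9, 26.5, 48.5 and 32.1 TPM) and Ms4a4a (10.4, 6.13, 10, 16 and 8.73 TPM), both highest in culture 4, heparanase Hpse (12.2, 8.51, 13, 21.5 and 13.2 TPM), also highest in culture 4, and the elastase Mmp12 (27, 23.3, 16.2, 10.1 and 20.8 TPM), lowest there. Ttr is given above. Cilia genes were Dnai4 (13.4, 9.12, 6.83, 16.4 and 7.79 TPM) and Spaca9 (15.4, 9.88, 16.3, 7.14 and 10.2 TPM), which did not share an order.

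Other members were Relb, an NF-kappaB subunit (5.95, 16.3, 16.2, 7.35 and 16 TPM), Cacnb4, a calcium channel subunit (12.7, 7.43, 9.26, 7.81 and 16.5 TPM), Iars1, a tRNA synthetase (22.6, 15.7, 15.3, 7.9 and 22.7 TPM), and Sap130, Lrrc27 and Rnf123, with CVs of 33.4 to 37.0%. The largest CV of all, 66.2%, was that of Rab40c, at 5.7, 8.12, 22.5, 8.93 and 6.72 TPM. Uba52rt, a retrotransposed copy whose reads may be shared with its parent gene, was at 73.1, 62.6, 149.8, 43.4 and 56.5 TPM. The predicted genes Gm15446, Gm49391 and Gm14434 had CVs of 34.3 to 48.1%, and the first 2 of them overlap other genes on the same strand, as Ttr, Mrc1 and Iars1 also do, which makes these levels uncertain.

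Some cell type lists had most of their genes highest or lowest in the same culture and others did not. The share of all genes highest or lowest in each culture was not counted. Of the 9525 genes, 19.6, 23.8, 15.8, 23.5 and 17.3% lay farthest from their own mean in cultures 1 to 5. For the detected genes of each list, the level was set in percent of the gene's own mean over the 5 cultures, and the median was taken over the list. The 13 mature oligodendrocyte genes stood at 123% in culture 1 and 84.1% in culture 4. The 16 microglia genes stood at 82.8% in culture 2 and 114% in culture 4, and the 6 border macrophage genes at 79.8% and 124% in the same cultures. The 17 pan-neuronal genes stood at 81.6% in culture 4, which held the lowest value for 15 of the 17. The 9 granule cell genes stood at 138% in culture 3. Astrocyte medians ranged from 91.1 to 105%, and 10 of the 13 detected astrocyte genes were lowest in culture 4. The 8 proliferation genes had no common order, since they were highest in 3 different cultures and lowest in 4, and the 5 detected mural genes were lowest in 4 different cultures.

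Gene programmes that are not cell type markers were compared in the same way. Here too the share of all genes highest or lowest in each culture was not counted. The counts below therefore do not tell a programme from a shift of a whole culture. Of 12 interferon-responsive genes 10 were highest in culture 3 and 2 in culture 4, and 8 were lowest in culture 5, with list medians of 138%, 120% and 70.0% of the mean in these cultures. The antiviral gene Rsad2 varied most, at 3.04, 3.62, 9.71, 6.93 and 3.5 TPM, and Ifit2 least, at 15.4, 15.2, 17.4, 16.4 and 14.8 TPM. The restriction factor Bst2 was the highest of the list at 258, 261, 349.8, 379 and 249 TPM. Immediate early genes had a median CV of 9.5%, from 3.76% for Ier2 to 23.4% for Egr2, and Fos was at 102, 107, 88.4, 89.5 and 108 TPM. Cholesterol synthesis genes had a median CV of 7.06%, from 2.75% for Insig1 to 13.7% for Lss, and 9 of 10 were lowest in culture 4. Hypoxia-inducible genes had a median CV of 12.3%, from 3.25% for the glucose transporter Slc2a1 to 37.9% for Ankrd37, and 7 of 10 were highest in culture 1.

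The main direction of difference between cultures, the leading principal component of log2(TPM + 1) over the 9525 genes, held 43.9% of the variance and set cultures 3 and 4 apart from 1 and 5. The next component held 26.1% and set culture 2 apart. No batch is given in the labels for these 5 cultures, and the part of cell mix, plating or library preparation in these differences was not tested.

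**Figure D4:**
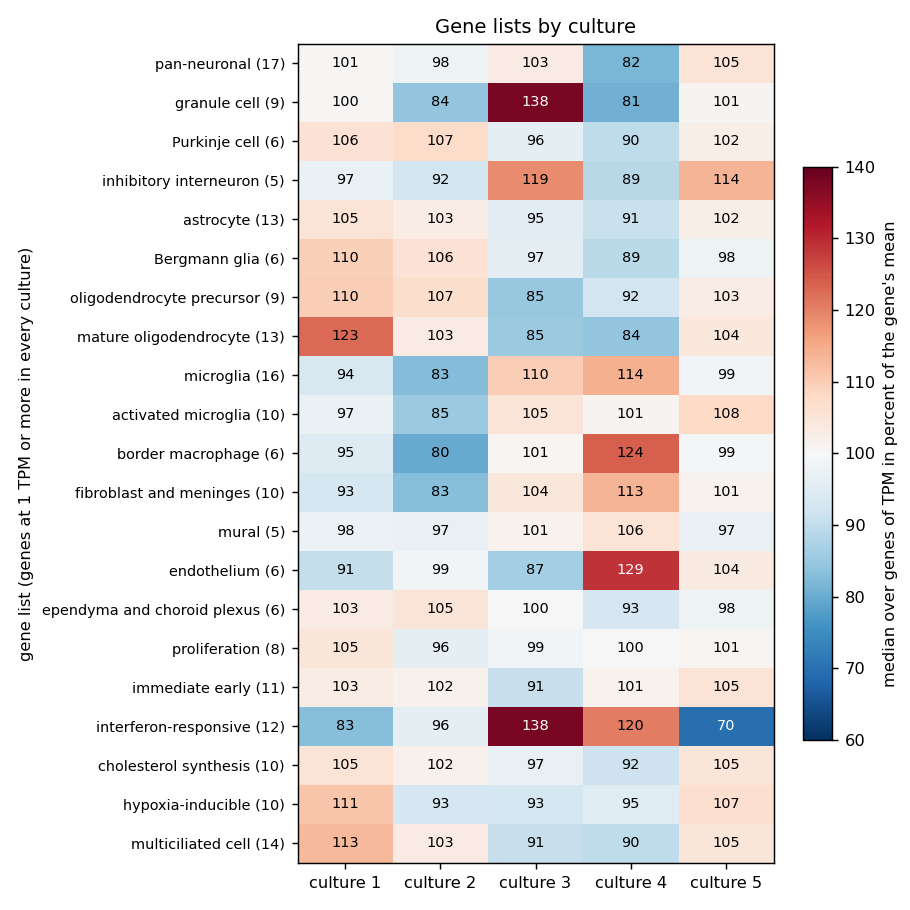
Level of each gene list in each of the 5 unstimulated cultures, as the median over its detected genes of TPM in percent of the gene's mean over the cultures, with the number of genes in brackets. Interferon-responsive genes stood at 138% in culture 3, mature oligodendrocyte genes at 123% in culture 1 and border macrophage genes at 124% in culture 4.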

How the data were processed

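RNA from the 5 untreated cultures was sequenced after TruSeq Stranded mRNA preparation as single-end reads of 100 bases. The deposited files give, for each transcript, its length, effective length, the authors' estimated count (expected count) and TPM. Notes of the submitters name FastQC 0.10.0, STAR 2.7.8a, featureCounts and GRCm39, whereas the program that made the transcript estimates is not given in the sources used here. Transcript IDs were matched to GENCODE release M39 (GRCm39) for names, positions and types, which found 120537 of 121798 (98.9647%). The unmatched ones held 0.575 to 0.599% of TPM. Of those matched, 29.7685% had another length there, so the files rest on another release, and the methods name release M26 for gene counts.

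The authors' TPM were summed by gene and reported as such, with SD and CV over the cultures, and exon shares were TPM of transcripts carrying an exon over that of all transcripts crossing it. The log2 scale used a pseudocount of 1. Sums and shares were computed in Python 3.11.15 with pandas 2.3.3, and the biological coefficient of variation in R 4.3.3 with edgeR 4.0.16 on rounded estimated counts, tested on simulated data. Estimated totals were 26473173 to 38435850 per culture, and counting intervals cover counting error only. With 1 group no contrast was tested.

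Gene lists, pairs, rules and members were chosen with earlier results of these data known. Named were the 25 nuclear protein-coding genes with the highest mean TPM, the 3 highest members and those under 1 TPM of each marker list, the 5 highest of each ligand or receptor list, the IL-12 genes, a list of isoform genes at 5 TPM or more, the 10 genes over 50 TPM whose leading isoforms differed most, the 20 with the largest CV, the sex-linked genes and the extremes of each programme. Other genes were chosen after their values were seen. Fcrls was not matched, and some genes the rule names are not reported here. Alternatives were CPM, annotated lengths, other minimum levels, coding transcripts only, the median or the mean log2 level, removal of mitochondrial genes, TMM scaling and leaving out each culture.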

Additional observations from a re-analysis of the deposited data

Results flagged for a closer look

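Of 220 sets of 5 values examined, 13 held a culture whose gap to the nearest other culture exceeded 0.71 of the whole range (Dixon's criterion for 5 samples). Chance flags about 1 in 20 sets that were not chosen for their spread, so about as many flags could arise with no outlying culture. Some sets, such as those of Rab40c, Uba52rt and Gm15446, were chosen for a large CV between these cultures. That rate need not hold for them, and no explanation was tested.

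Culture 3 stood above the rest for Snap25, the synaptic fusion protein, at 34.6 TPM against 22.4 in the next culture. It also stood above the rest for Rab40c (22.5 against 8.93 TPM), Uba52rt (149.8 against 73.1 TPM) and Gm15446 (22.1 against 11.6 TPM), and by a smaller margin for Gnas (2791 against 2594 TPM). Culture 4 had the highest ratio of the microglia to the pan-neuronal median, 13.6 against 9.85, and the highest level of the chemokine receptor gene Ccr1, 4.94 against 2.61 TPM. It had the lowest level of the GABA-A receptor gene Gabrb2, 4.88 against 6.49 TPM, and the highest median of the endothelium list, 2.42 against 1.45 TPM. Culture 2 had the lowest Eef1a1 (4121 against 4426 TPM) and Gapdh (2746 against 3029 TPM) and the highest Mdk (301.2 against 263.8 TPM). Culture 1 had the highest level of the Y-linked Ddx3y, 21.9 against 18.3 TPM.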

How the results depend on the processing

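Length correction moved the summaries of abundance. In CPM, 1063 genes in place of 422 held 50% of the total, the 25 most abundant genes held 11.7% in place of 18.2%, and the ratio of the microglia to the pan-neuronal median was 15.4 in place of 10.2. With annotated in place of effective lengths the top 25 held 17.1%, and without mitochondrial genes they held 15.0%. The ratio was 12.3 with the mean of log2(TPM + 1). Thresholds moved other counts: 2680 genes had an isoform over 80% and 3997 an isoform over 50% at 20 TPM or more, against 6594, and 24 pairs in place of 37 passed 5 TPM. The median CV of 7.14% became 6.64% with annotated lengths, 8.51% over genes of at least 1 TPM, 5.69% over those of at least 50 TPM and 5.46% in CPM scaled with TMM.

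Leaving out each culture in turn gave a median CV of 6.67 to 7.10%, a biological coefficient of variation of 7.02 to 7.96%, 14229 to 14282 genes detected, 415 to 431 genes for 50% of TPM, a top-25 share of 18.1 to 18.4%, 6726 to 6769 genes with a dominant isoform, 108 to 109 ligands, 172 to 173 receptors, 37 to 38 pairs and a ratio of 9.29 to 10.5. Detected genes, ligands, receptors and pairs and dominant isoforms had to pass in every culture. Leaving out a culture can only keep or raise such counts, so their ranges are no check of stability. Of the exon shares, 14 of 57 values under other settings moved by more than 1 SD, as did 35 of 84 list medians. Leaving out 1 culture cannot move a mean over the cultures by 1 SD of its values. That setting is therefore no check of these shares and medians. No paired analysis was possible because 1 group is described and no value comes from a test.

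Depth limits genes near 1 TPM, where Il12rb1 rested on 23 to 51 reads per library. Isoform shares rest on a model that divides shared reads. The cultures are bulk samples whose cell makeup was not measured.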

Other observations

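Long noncoding RNAs took 0.860% ± 0.0426 of all TPM. Malat1, a nuclear noncoding RNA that most cells retain in the nucleus, was at 537, 278, 249.7, 305 and 356 TPM, with culture 1 above the other 4. It was followed by Gm48275 (263 ± 23.3 TPM) and Gm43305 (237 ± 12.1 TPM), then by Gas5, the host of small nucleolar RNAs, at 232, 236, 213, 216 and 209 TPM, and by 2410006H16Rik (108 ± 6.94 TPM).

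Genes of mature motile cilia were detected from early regulators to axonemal motors. Ccno, needed to form many centrioles, was at 14.6, 19.4, 16.4, 14.4 and 17.8 TPM. The outer-arm dynein genes Dnah5, Dnah9 and Dnah11 were at 3.1 ± 0.629, 8.51 ± 1.05 and 5.55 ± 0.74 TPM, the dynein chain Dnai1 at 12 ± 1.67 TPM, and the central-apparatus genes Spag6l and Hydin at 53.1 ± 4.34 and 3.75 ± 0.851 TPM. The remaining members Tekt1, Cfap43 and Cfap44 were at 48.6 ± 3.18, 17.5 ± 1.94 and 34.9 ± 4.89 TPM. This list was chosen after values of these data were seen.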
